A study of Mus musculus with 4 samples.

Results

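The cells described here are oviduct epithelial cells of newborn mice in which Foxj1 RNA was detected. They were taken from both oviduct libraries as barcodes with at least 500 genes and at most 15% mitochondrial UMIs (unique molecular identifiers, each counting 1 captured RNA molecule). Each cell had to show at least 3 of the 7 epithelial genes Epcam, Cldn3, Cldn7, Wfdc2, Cdh1, Ehf and Krt18, with these genes making up at least 0.1% of its UMIs. It also had to have 0 UMIs of the mesothelial gene Upk3b and of the endothelial gene Pecam1, and at least 1 UMI of Foxj1. The rule found 83 cells, 31 in oviduct replicate 1 and 52 in oviduct replicate 2, out of 466 oviduct cells that met every criterion but Foxj1 and 26619 called barcodes in the whole series. The other 383 epithelial cells had no Foxj1 UMI and are called Foxj1- below.

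The animals were CD1 wild-type mice at postnatal day 3. Oviduct and uterus were each broken up into single cells by the enzymes Collagenase B, Dispase II and DNase I and run on 10x Chromium, which counts the 3′ ends of transcripts, with 2 libraries per organ. The 2 replicates were pools of 3 and 4 neonates, and the same neonates gave both organs. No animal was treated, so the groups compared here are classes of cells within a library. The 4 libraries held between 5716 and 7808 called barcodes with a median of 9608 to 11890.5 UMIs, and any pair of libraries had between 8 and 15 barcode sequences in common.

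Foxj1 is a forkhead transcription factor that switches on the genes of motile cilia. In the oviduct, multiciliated cells move eggs and fluid, and they share the lining with secretory cells that express Pax8. A cell entering the multiciliated path first uses regulators such as Gmnc, Mcidas, Myb, Ccno and the deuterosome protein Deup1, which drive the assembly of many basal bodies. Foxj1 and the Rfx factors then act on genes for axoneme parts, the dyneins, radial spokes, tektins and linkers of the beating cilium. Notch signalling between neighbours holds cells back from this path.

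Since Foxj1 and the epithelial genes chose the cells, their levels are given as a description with no test. Foxj1 (ENSMUSG00000034227, GRCm38 chr11:116330704-116335399, minus strand) had 472 UMIs in the 83 cells. In 41 cells there was 1 UMI, in 22 cells there were 2 to 4, and in 20 cells there were 5 or more. The last 20 cells carried 370 of the UMIs, so most of the Foxj1 RNA lay in a small number of cells. The highest count was 87 UMIs in replicate 1 and 51 in replicate 2. Epcam was detected in 77 of the 83 cells, Cldn3 in 77 and Cldn7 in 78, and 59 cells showed all 7 epithelial genes. The cell nearest the lower bound had 0.112% of its UMIs in these genes, and 4 of the 83 were among the barcodes with the highest doublet scores.

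The share of epithelial cells with Foxj1 was alike in both libraries and followed the depth of the cell. It was 18.6% in replicate 1 (31 of 167 cells, exact 95% binomial interval 13.0 to 25.3%) and 17.4% in replicate 2 (52 of 299, 13.3 to 22.2%). Among cells under 5000 UMIs it was 3.33% and 5.95%, and among cells of 50000 UMIs and over it was 80% in each library. The cells with Foxj1 had a median of 31654 UMIs in replicate 1 and 29034 in replicate 2, against 3449 and 3354 in the Foxj1- cells. Of cells with at least 5000 UMIs, 36.4% and 32.1% had Foxj1, and when each was thinned at random to 5000 UMIs it was 7.79% (6 of 77) and 13.7% (18 of 131). These intervals cover counting error only.

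**Figure D1:**
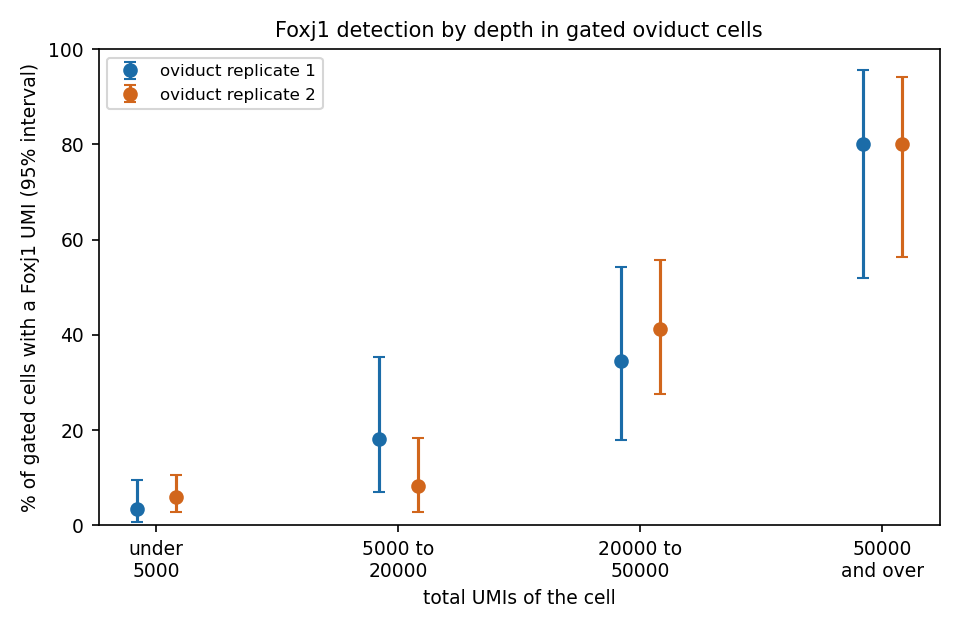
The share of gated oviduct epithelial cells with at least 1 Foxj1 UMI (vertical axis, percent, with exact 95% binomial intervals) in 4 ranges of total UMIs per cell, for each oviduct library. Both libraries go from under 6% in the shallowest cells to 80% in the deepest.

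Free RNA in droplets can place a UMI in a cell that does not make it, so cells outside the epithelium give the background. Stromal cells of the oviduct, with 4 or more of 6 stromal genes and none of the 7 epithelial genes, had Foxj1 in 1.35% (44 of 3264) and 0.928% (24 of 2586). Thinned to 5000 UMIs, stroma had it in 0.663% and 0.603% of cells. The median depths of all stromal cells, which include those under 5000 UMIs that were not thinned, were 12359 and 10903.5 UMIs. Endothelial cells without epithelial genes had it in 0.893% (1 of 112) and 2.22% (2 of 90) after the same thinning. The epithelial shares after thinning lay above both. In the uterus, 2 of 57 and 2 of 101 epithelial cells chosen by the same genes had Foxj1, each with a single UMI, although few of those cells were deep: 17 and 20 had 5000 UMIs or more.

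The rule's demand for no Upk3b or Pecam1 UMI removed many deep cells that carried Foxj1. In replicate 1, 176 of the 557 Foxj1 UMIs in called barcodes lay in the chosen cells and 260 lay in 26 epithelial cells left out for a Upk3b or Pecam1 UMI. In replicate 2 the numbers were 296 of 623 and 224, in 40 cells left out. Those cells had median depths of 136021.5 and 74443.5 UMIs. When up to 0.01% of UMIs was allowed for both genes together, the share with Foxj1 was 24.8% and 24.5%. The chosen cells are thus a subset of the epithelial cells with Foxj1 RNA.

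The 83 cells were far from uniform. The share of a cell's UMIs in 112 genes of the motile axoneme (the 114 of 116 listed names found in the files, less the widely used tubulins Tuba1a and Tubb4b) had a median of 0.0612%, against 0.0394% in Foxj1- cells. It ranged from 0.00829% to 6.17%. In 12 of the 83 cells it was 0.3% or more and in 7 it was 1% or more, against 6 and 1 of the 383 Foxj1- cells. The line at 0.3% was drawn after the values were seen and marks a range on a scale, not a cell type: 3 members lay between 0.2% and 0.4%, at 0.254%, 0.265% and 0.309%.

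**Figure D2:**
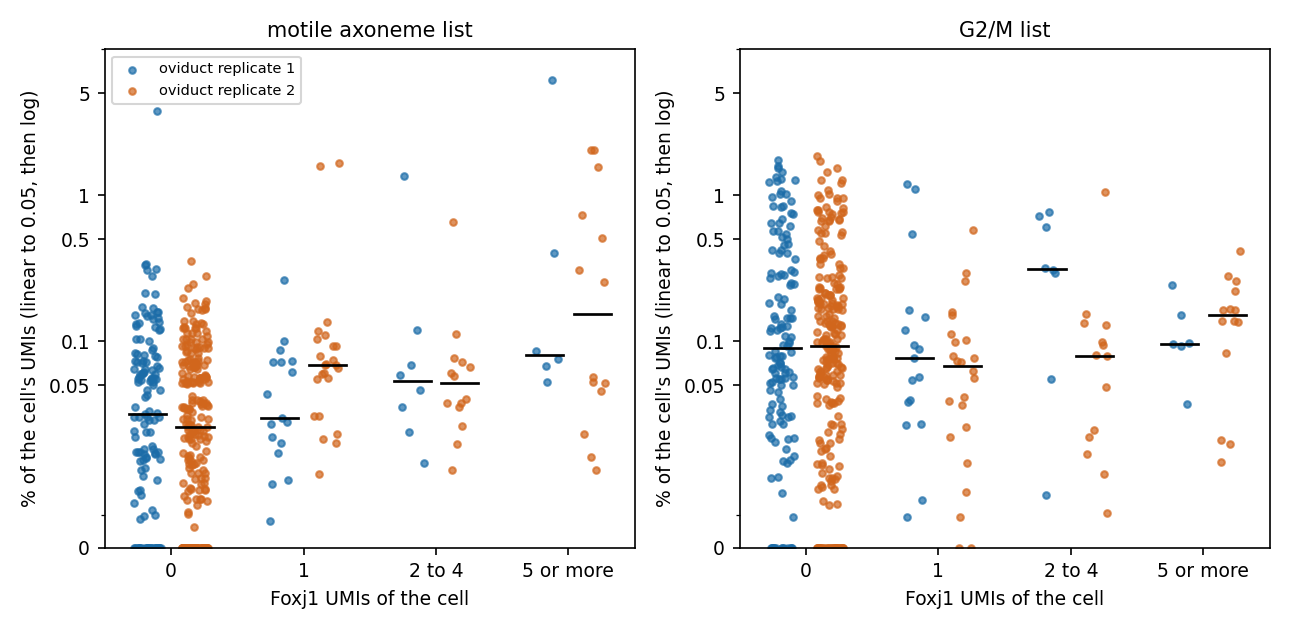
Each point is 1 cell, grouped by its Foxj1 UMIs (horizontal axis) and coloured by oviduct library, with the median of each group as a bar. The vertical axes give the percent of the cell's UMIs in the motile axoneme list (left) and the G2/M list (right), linear up to 0.05 and logarithmic above. All gated oviduct cells are drawn, and the Foxj1- cells are mostly shallower. Of the 83 cells with Foxj1, 7 reach 1% axoneme UMIs or more, as does 1 of the 383 Foxj1- cells. No cell with 5 or more Foxj1 UMIs exceeds 0.5% G2/M UMIs.

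The cell with the most axoneme RNA, in replicate 1, had 31654 UMIs, of which 6.17% were axoneme RNA. It held 18 UMIs of Foxj1, 112 of Fam183b, a gene for a ciliary protein, 93 of the dynein light chain gene Dynlrb2, 82 of Ccdc153 and 78 of Tmem212. Mcidas, Ccno and Deup1 each had 0 UMIs in it, and Myb had 9. It also had no Pax8 UMI. This cell combined abundant axoneme RNA with none of 3 early regulators.

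Other cells held the early regulators at high level. The replicate 2 cell with the most Foxj1 had 51 UMIs of it among 39627 UMIs, with 13 of Mcidas, 35 of Ccno, 25 of Myb and 54 of Deup1. Its axoneme share was 2.04%, with 65 UMIs of Dynlrb2 and 24 of Fam183b, but with 4 of Ccdc153 and 0 of Tmem212. A second replicate 2 cell had 40 UMIs of Foxj1, 7 of Mcidas, 8 of Ccno, 19 of Myb and 13 of Deup1, with 0.731% axoneme RNA and no Fam183b UMI. Another had 21 UMIs of Foxj1, 5 of Mcidas, 22 of Ccno and 12 of Deup1 among 13956 UMIs, with 1.55% axoneme RNA. In replicate 1 the cell with 87 Foxj1 UMIs had 11 of Mcidas, 9 of Ccno, 13 of Myb and 28 of Deup1, and with 232680 UMIs it was also among the deepest. Every one of these 4 cells held Mcidas, Ccno and Deup1 together, and Foxj1 was at 3.74 to 15.05 per 10000 UMIs in them.

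Shallow cells could carry the same genes. In replicate 2, a cell of 4861 UMIs had 6 of Foxj1, 4 of Ccno, 5 of Deup1 and 11 of Dynlrb2, with 2.06% axoneme RNA. Another of 3551 UMIs had 6 of Foxj1 and 5 of Deup1. In replicate 1, a cell of 1628 UMIs, the shallowest of all, had 3 of Foxj1 and 2 of Deup1 and an axoneme share of 1.35%. Of the 12 cells at 0.3% or more, 6 had under 5000 UMIs.

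Deep cells with several Foxj1 UMIs mostly had a regulator but little axoneme RNA. Of the 83 cells, 18 had 100000 UMIs or more, and 11 of those 18 had 5 or more Foxj1 UMIs. All 11 held at least 1 of Mcidas, Ccno, Deup1, Cdc20b and Myb, 7 held 2 or more, and 2 had an axoneme share of 0.3% or more. No set of Foxj1- cells of this depth was compared, and the part of depth in these counts was not tested. Among 62 Foxj1- cells with a median of 25573 UMIs, 15 held at least 1 of the regulators and 1 held 2 or more. Per 10000 UMIs, Foxj1 in these 18 cells ran from 0.0375 to 3.74. One example in replicate 2 had 185714 UMIs, with 6 of Foxj1, 0 of Mcidas, Ccno and Deup1, 3 of Myb, 58 of Pax8 and 41 of Wt1, and an axoneme share of 0.028%.

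**Figure D3:**
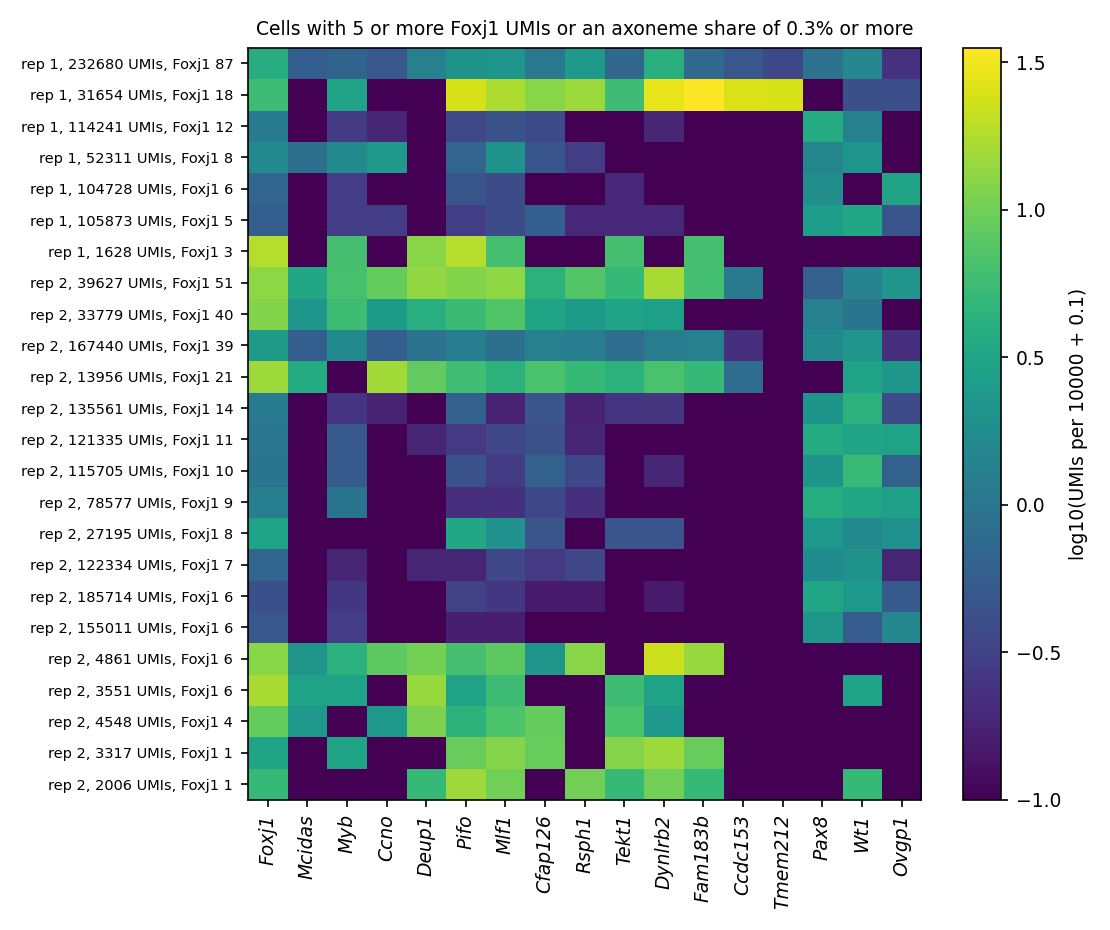
UMIs per 10000 (log10 after adding 0.1, colour) of Foxj1, early regulators, axoneme genes and secretory or duct genes (columns) in the 24 cells with 5 or more Foxj1 UMIs or at least 0.3% axoneme RNA (rows, ordered within a library by Foxj1 UMIs). The darkest colour means no UMI. Of the 12 rows at 0.3% or more, 8 lack Pax8, but 6 of those have under 5000 UMIs, a depth at which a single Pax8 UMI is easily missed. Deep rows with few Foxj1 UMIs per 10000 show Pax8 with little axoneme RNA.

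Early regulators were found mostly in the cells with many Foxj1 UMIs. Of the 5 genes Mcidas, Ccno, Deup1, Cdc20b and Myb, 2 or more were seen in 13 of the 20 cells with 5 or more Foxj1 UMIs. With 2 to 4 Foxj1 UMIs this held for 4 of 22 cells, and with 1 Foxj1 UMI for 3 of 41. Among the 383 Foxj1- cells it held for 3. The cells with 5 or more Foxj1 UMIs had 430 UMIs of the 5 genes, those with 2 to 4 had 27 and those with 1 had 28, and all Foxj1- cells together had 52. Depth was higher in the cells with more Foxj1 UMIs. When every cell of at least 5000 UMIs was thinned to 5000, axoneme RNA averaged 54.2 and 21.4 UMIs per cell with 5 or more Foxj1 UMIs (6 and 12 cells, medians 7 and 3.5), against 2.14 and 2.01 in Foxj1- cells (49 and 89 cells, medians 2 and 1). At this equal depth the means stood apart while the medians of the classes lay closer, since a few cells held most of the UMIs. All 6 of those cells in replicate 1 and 4 of the 12 in replicate 2 kept a regulator UMI, against 2 of 49 and 2 of 89. These counts come from 1 random draw per library, and another draw could change them. Before thinning, the replicate 1 cells of 114241, 104728 and 105873 UMIs held only 3, 2 and 4 regulator UMIs.

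**Figure D4:**
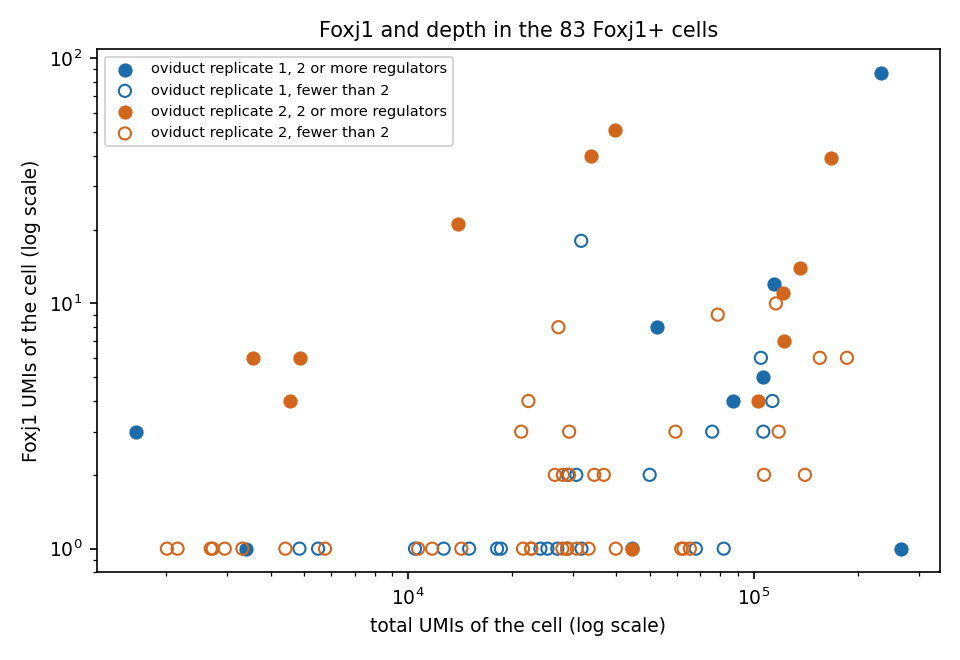
Foxj1 UMIs against total UMIs for each of the 83 cells, both on log axes, with colour for the oviduct library. Filled points are cells with at least 2 of the regulators Mcidas, Ccno, Deup1, Cdc20b and Myb. Cells with 20 or more Foxj1 UMIs are all filled, and of the 41 cells with 1 UMI 3 are filled, among them the deepest cell at 267003 UMIs.

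Single regulators were seen in few cells. Mcidas, which works with E2f factors to start the multiciliated program, was seen in 11 of the 83 cells with 53 UMIs, 50 of them in cells with 5 or more Foxj1 UMIs. Ccno, a cyclin-like protein needed for basal body production, was seen in 16 cells with 109 UMIs, 102 of them in those cells. Deup1, the scaffold of the deuterosome, was in 16 cells with 145 UMIs, and Myb was in 38 with 168. The forkhead gene Foxn4 was in 6 cells, all with 5 or more Foxj1 UMIs, and had 11 UMIs. Trp73 was in 8 cells, and Gmnc, which acts upstream of Mcidas, was in 6 with 7 UMIs, of which 1 was in a cell with 5 or more Foxj1 UMIs.

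Secretory and duct genes were present in many of the cells. Pax8, the transcription factor of the secretory lineage, was seen in 65 of the 83 cells and Wt1 in 64. The oviductal glycoprotein gene Ovgp1, a secretory product, was in 47 cells and Pax2 in 40. In the 6 cells with 5000 UMIs or more and at least 0.3% axoneme RNA, summed Pax8 was at 98.2 counts per 1000000 UMIs (CPM) against 216 CPM in the 64 cells of that depth below the line. In the same 6 cells Ovgp1 was at 32.7 CPM against 119 CPM, and Wt1 was at 154 CPM against 200 CPM. By library, Pax8 was at 71.9 against 222 CPM in replicate 1 (2 and 26 cells) and at 126 against 212 CPM in replicate 2 (4 and 38 cells). Of these 6 cells, 2 deep ones near the line (axoneme shares of 0.403% and 0.309%) held 400120 of the 519136 UMIs, and so set most of each sum. The other 4 cells had Pax8 at 50.4 CPM (6 UMIs), Wt1 at 109 CPM (13 UMIs) and Ovgp1 at 101 CPM (12 UMIs). With those 2 deep cells left out, Ovgp1 thus lay near its level below the line. That value rests on few UMIs, and 8 of the 12 lay in the replicate 2 cell of 39627 UMIs. Because axoneme RNA itself defined the 2 classes and they hold few cells, these are levels without a test.

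A tested comparison used cells of like depth. Each cell with Foxj1 was paired within its library with the Foxj1- cell nearest in total UMIs, no more than 25% apart, which found a partner for 62 of the 83 (21 in replicate 1, 41 in replicate 2). The other 21 were left out. Each of these had 75717 UMIs or more, and they included all 18 cells of 100000 UMIs or more. The 62 cells kept held 242 of the 472 Foxj1 UMIs, so the test does not cover the deepest cells described above. UMIs were summed over the cells of each class in each library, giving 4 sums of 533052 and 1045940 UMIs with Foxj1 and 526980 and 1005853 without. The sums were compared with edgeR's quasi-likelihood F-test with the library as a block, leaving out the 10 genes used by the rule. Cells are not replicates here: the spread is that of the class difference over 2 libraries, each a pool of neonates. It has 1 residual degree of freedom and is shared across genes.

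Of the axoneme genes 28 of 46 tested and of the regulators 3 of 11 were called higher in the cells with Foxj1, and 10 of 38 tested genes of the G2/M phase of the cell cycle were called lower. Of 7941 genes tested, 94 (1.18%) passed an adjusted p of 0.05 (Benjamini-Hochberg), 68 higher (0.856%) and 26 lower (0.327%), and 656 had an unadjusted p under 0.05. The number of calls depended on the model: DESeq2 called 7, and edgeR without the library block called 14, all of them among the 94.

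The motile axoneme list had 46 genes tested, of which 28 were higher and 0 lower, with a median log2 fold change of 2.37 against -0.003 for all genes tested. In both libraries separately, 44 of the 46 were higher, against 25.7% of all genes tested. Some of these genes passed the low-count filter through the cells with Foxj1, which favours that direction. Without the filter, 57 of 111 were called higher, 110 were above 0 and the median was 3.00. Of all 16182 genes tested without the filter, 184 were called higher. Summed over the whole list, axoneme RNA was at 5681 and 2557 CPM with Foxj1 in replicates 1 and 2 and at 1224 and 938 CPM without. The 2 libraries did not overlap between the classes. Much of this difference rested on 1 cell in each library. Without the single cell with Foxj1 that had the most axoneme UMIs in each library, and its partner, 23 of these genes were tested, 2 were called higher and the median log2 fold change was 0.73, with 21 of 23 above 0. Of all 7696 genes tested in that fit, 42 were called higher.

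Pifo, a gene for a protein of the ciliary base, was at 178 and 102 CPM with Foxj1 and at 20.9 and 12.9 CPM without, seen in 28 and 16 of 62 cells. Its log2 fold change was 3.03 (SE 0.25, edgeR adjusted p = 0.000104). Of the 95 UMIs in replicate 1, 79 lay in 1 cell, and of the 107 in replicate 2, 47 did. Fam183b was at 212 and 40.2 CPM against 15.2 and 0.994 CPM, a log2 fold change of 4.07 (SE 0.35, edgeR adjusted p = 0.000106). In replicate 1, 112 of its 113 UMIs lay in 1 cell. Without 1 cell per library the log2 fold change of Fam183b was 0.92 and no longer called, while Pifo was called at 1.56. Both classes were apart in both libraries for each of these genes, but they rest on few cells.

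Further axoneme genes showed the same form. Dynlrb2 was at 174 and 99.4 CPM against 39.9 and 0 CPM, with all 93 UMIs of replicate 1 in 1 cell. Its log2 fold change of 3.22 was 0.70 and no longer called without 1 cell per library. Tekt1, a tektin of the ciliary microtubules, was at 37.5 and 53.5 CPM against 9.49 and 0 CPM, and was seen in 15 cells against 2. Of its 20 UMIs in replicate 1, 18 lay in 1 cell, and of the 56 in replicate 2, 20 did. Drc3, of the nexin-dynein regulatory complex, was at 46.9 and 28.7 CPM against 5.69 and 1.99 CPM, with a log2 fold change of 3.36 (SE 0.50). All 25 of its UMIs in replicate 1 lay in 1 cell, as did 20 of the 30 in replicate 2. Tekt4 had 45 UMIs against 1, a ratio of 43.7 with a counting interval of 7.45 to 1763. Cfap206 had 32 UMIs against 1, a ratio of 31.1 (5.19 to 1265). Efcab1 had 36 UMIs against 0, which makes it at least 11.6-fold higher when 3 counts over the group stand for 0. Riiad1 had 54 UMIs against 2, a ratio of 26.2 (6.91 to 222). In replicate 1, all 21 UMIs of Tekt4, all 15 of Cfap206, all 16 of Efcab1 and 36 of the 39 of Riiad1 lay in 1 cell. The counting intervals and the 3-count floor treat each UMI as independent and leave out the spread between cells.

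Among the remaining called members of the list were genes for radial spokes (Rsph1, Rsph4a), an inner-arm dynein heavy chain (Dnah12), a docking factor of the outer dynein arm (Ttc25) and Cfap126, Enkur, Nme5, Spef1 and Ccdc113. Rsph1 was at 91.9 and 54.5 CPM against 20.9 and 4.97 CPM, and Rsph4a at 26.3 and 15.3 CPM against 1.90 and 1.99 CPM. Outside the list, 1700016K19Rik (58.2 and 58.3 CPM against 9.49 and 4.97 CPM, seen in 23 cells against 7), Caly, Erich2 and 4833427G06Rik were among the largest rises. Erich2 was at 82.5 and 23.9 CPM against 1.90 and 4.97 CPM, with 41 of its 44 UMIs in replicate 1 in 1 cell. Caly was at 146 and 24.9 CPM against 13.3 and 4.97 CPM. For 4833427G06Rik the 67 UMIs against 2 gave a ratio of 32.5 (8.66 to 274), with all 37 of replicate 1 in 1 cell. Riiad1, Pifo, Myb, Erich2, Efcab1 and 4833427G06Rik overlap a gene on the other strand in the annotation, as do Deup1 and Trp73 and, among genes called lower, Ube2c, Nusap1, Cdc20, Tagln and Knstrn.

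RefSeq promoter sequence was at hand for 50 of the 68 genes called higher, and a short motif was more frequent in it than over all genes tested. The motif is GTTGCC (or GGCAAC, the same letters on the other strand), one arm of the X-box that Rfx factors bind. It stood in the 250 bases before the start of 20 of the 50 (40%) and of 11 of 21 axoneme genes called higher (52.4%). It stood in 1 of 22 genes called lower (4.55%) and in 803 of the 6384 tested genes with a promoter (12.6%). The 20 include the haemoglobin gene Hbb-bs, with its match 250 bases before the start. Of the 3014 Hbb-bs UMIs with Foxj1 in replicate 2, 2993 lay in 1 cell. The longer palindromic X-box, with both arms 2 bases apart, was met in 1 of the 50, Pifo, and in 0.611% of tested genes. A closer pair of full arms, GTTGCC and GGCAAC with 1 base between them, searched after the first matches were seen, was met in 2 of the 50 and in 5 of the 6384. The forkhead motif GTAAACA was met in 2 of the 50 (4%) and in 2.73% of tested genes. Any overlap between motifs was allowed. A gene counts where any of its RefSeq starts has a match, and 10 of the 50 had more than 1 start. For Pifo, 1110017D15Rik, Tekt1 and Caly, 1 of 2 starts had the match, which for Pifo and 1110017D15Rik was the downstream one. A match here is a description of letters, not a binding site.

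The stretches below are from the promoters of genes that carry the tested difference, from RefSeq on GRCm38.p6, 5′ to 3′ on the strand of the gene, with the X-box or its arms in capitals. The Ccno stretch begins 239 bases before the start and the others end at the base before it.
1110017D15Rik, chr4:41507765-41507844, minus strand: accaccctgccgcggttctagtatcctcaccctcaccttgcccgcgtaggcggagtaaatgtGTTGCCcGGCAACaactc
1700001L19Rik, chr13:68597359-68597438, plus strand: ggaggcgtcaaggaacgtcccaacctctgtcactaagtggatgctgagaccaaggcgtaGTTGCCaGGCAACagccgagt
Pifo, chr3:106001498-106001577, minus strand: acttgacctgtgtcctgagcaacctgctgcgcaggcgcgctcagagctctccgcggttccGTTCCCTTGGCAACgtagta
Fam183b, chr11:58801961-58802040, minus strand: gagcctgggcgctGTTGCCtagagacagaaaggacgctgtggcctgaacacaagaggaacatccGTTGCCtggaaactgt
Tekt1, chr11:72361883-72361962, minus strand: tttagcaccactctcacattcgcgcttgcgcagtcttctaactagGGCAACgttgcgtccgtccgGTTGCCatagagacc
Dynlrb2, chr8:116504935-116505014, plus strand: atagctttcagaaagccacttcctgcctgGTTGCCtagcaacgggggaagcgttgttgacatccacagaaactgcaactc
Ccno, chr13:112987563-112987622, plus strand: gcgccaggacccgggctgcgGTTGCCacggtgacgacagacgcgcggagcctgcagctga
The first pair hold the arms closed up with 1 base between them, Fam183b and Tekt1 hold 2 separate arms, and the cyclin gene Ccno holds 1 arm farther from its start. The first pair were higher in the cells with Foxj1: 1110017D15Rik was at 86.3 and 76.5 CPM against 17.1 and 5.97 CPM, and 1700001L19Rik had 25 and 18 UMIs against 1 and 0.

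Among multiciliated regulators, 3 of 11 tested were higher, against 0.856% of all genes tested, and none was lower: Ccno, Myb and Mycl. Ccno and Myb, with 4 and 10 UMIs in the partners, passed the low-count filter through the cells with Foxj1, which favours that direction. Without the single cell with most axoneme UMIs in each library, 3 of 10 were called higher, against 42 of all 7696 genes tested in that fit. DESeq2 called 0 of 11 (7 of all genes tested, with 118 at an unadjusted p under 0.05), and thinning left 4 genes to test, of which 0 were called by edgeR (36 of all 3341 genes tested there were called higher). With the relaxed limit on Upk3b and Pecam1, 2 of 12 were called higher, against 124 of all 10349 genes tested in that fit. There the list's median was -0.02, and Myb lost its call at a log2 fold change of 1.23. Ccno (ENSMUSG00000042417, chr13:112987802-112990777, plus strand) was at 28.1 and 67.9 CPM against 1.90 and 2.98 CPM, a log2 fold change of 4.28 (SE 0.48, edgeR adjusted p = 0.000963). Its 86 UMIs lay in 9 cells, with 35 of the 71 in replicate 2 in 1 cell. Myb (ENSMUSG00000019982, chr10:21124935-21160984, minus strand), an early regulator of multiciliated cells, was at 48.8 and 62.1 CPM against 1.90 and 8.95 CPM, in 22 cells against 10, with a log2 fold change of 3.14 (SE 0.41). Mycl, of the Myc family, was at 159 and 129 CPM against 75.9 and 74.6 CPM, in 41 cells against 40, and its log2 fold change was 0.91 (SE 0.19). Of its 85 UMIs in replicate 1, 36 lay in 1 cell, and of the 135 in replicate 2, 22 did. Mycl differed in level with nearly the same number of cells, while Ccno and Myb were also found in more cells.

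Several regulators were removed by the low-count filter in the matched cells. Without that filter 5 of 22 regulators were called higher, Mcidas and Deup1 among them but not Trp73 (edgeR adjusted p = 0.193). In the same fit 184 of all 16182 genes tested were called higher. Mcidas had 32 UMIs in 7 cells against 1 UMI. Deup1 had 4 and 96 UMIs in the cells with Foxj1 against 6 and 1 in their partners, so replicate 1 did not share the direction of replicate 2. Trp73 had 12 UMIs against 0 and was at least 3.88-fold higher by the 3-count floor. Foxn4, seen in 5 matched cells with 9 UMIs, had 0 UMIs in the partners. Rfx3, tested, had a log2 fold change of 0.88 (SE 0.47, edgeR adjusted p = 0.691). Rfx2 had 9 UMIs against 3, a ratio of 2.91 (0.727 to 16.7), Gmnc had 2 against 2, and Cdc20b had 5 against 1.

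One partner cell had the program without a Foxj1 UMI. It was a replicate 1 cell of 3396 UMIs with 8 UMIs over 4 of the 5 regulators and 3.77% axoneme RNA. No other Foxj1- cell held 3 or more of the 5 regulators. It held 5 UMIs of Deup1, 1 each of Mcidas, Ccno and Cdc20b, and none of Pax8. It also held 18 of the 21 Dynlrb2 UMIs and all 8 Fam183b UMIs of the replicate 1 partners. At its depth a missing Foxj1 UMI does not show that the gene was off.

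**Figure D5:**
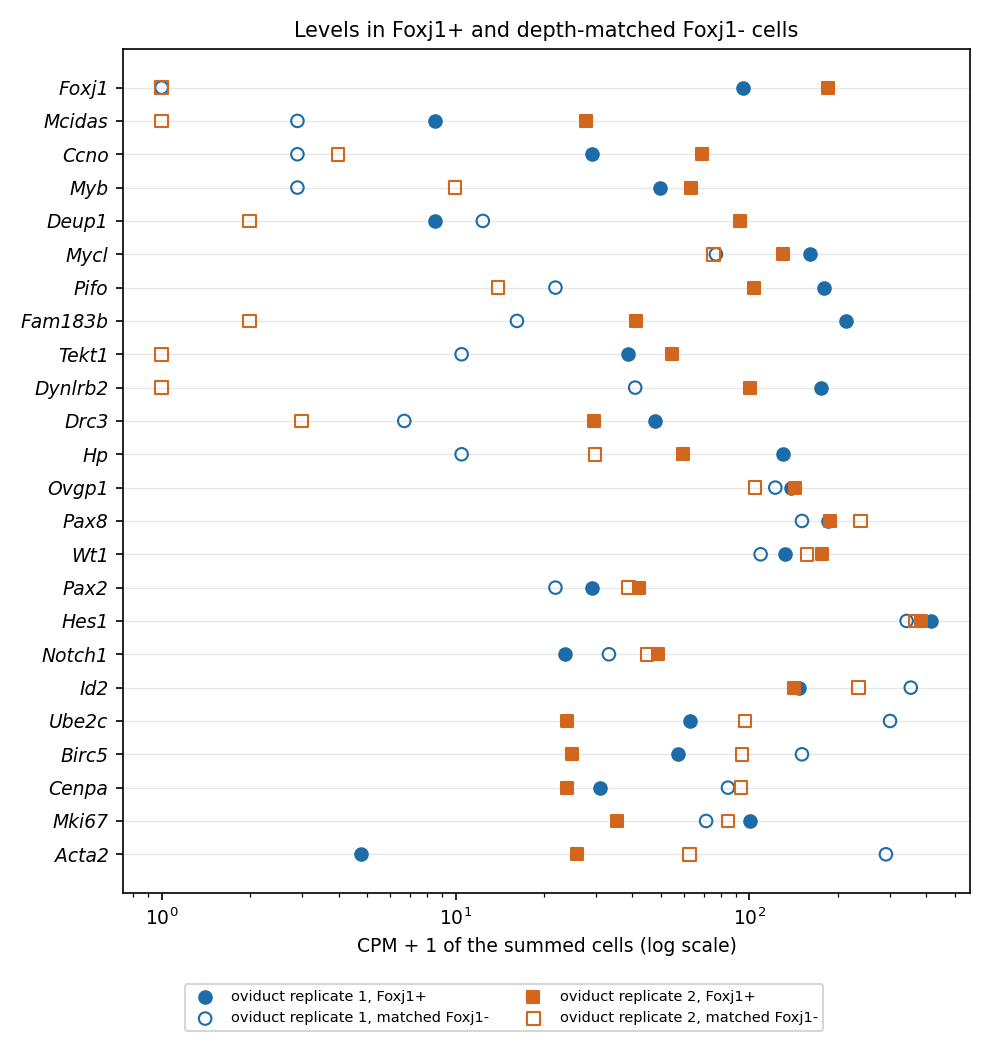
CPM plus 1 (log axis) of summed UMIs for named genes (rows) in cells with Foxj1 (filled) and their depth-matched Foxj1- partners (open), circles for oviduct replicate 1 and squares for oviduct replicate 2. Foxj1 is 0 in the partners by the rule. Regulator and axoneme genes stand to the right in the cells with Foxj1, except Deup1 in replicate 1, and Ube2c, Birc5 and Cenpa stand to the left. Pax8 and Hes1 lie close together, and the replicates order Mki67 in opposite ways.

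Basal body and intraflagellar transport genes, which serve primary cilia as well as motile ones, had 0 calls by edgeR among 46 tested, near the 1.18% called over all genes tested. Their median log2 fold change was 0.33, and 26 of the 46 were higher in both libraries, against 25.7% of all genes tested. Summed, they were at 2324 and 2089 CPM with Foxj1 and at 1772 and 1621 CPM without.

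Of 38 genes of the G2/M phase tested, 10 were called lower (0.327% of all genes tested were) and none higher, and with the cells limited to 2 or more Foxj1 UMIs none was called by edgeR. The list had a median log2 fold change of -0.81, and 28 of 38 were lower in both libraries, against 28.8% of all genes tested. Ube2c (ENSMUSG00000001403, chr2:164769898-164778822, plus strand), which marks mitotic regulators for degradation, was at 61.9 and 22.9 CPM against 300 and 95.4 CPM. Its log2 fold change was -2.17 (SE 0.20, edgeR adjusted p = 0.000205), and 118 of the 158 partner UMIs in replicate 1 lay in 1 cell. Cenpa, the histone of the centromere, was at 30.02 and 22.9 CPM against 83.5 and 92.5 CPM, in 8 cells against 21. Birc5, a protein of the chromosomal passenger complex, was at 56.3 and 23.9 CPM against 150 and 93.5 CPM, in 11 cells against 24. Cdc20, the activator of the mitotic ubiquitin ligase, was at 7.50 and 28.7 CPM against 77.8 and 82.5 CPM. The spindle genes Nusap1 (log2 fold change -1.98, SE 0.35) and Tpx2 (-1.47, SE 0.27) were called as well, as were Cenpe, Cenpf, Cdca3 and Ccnb2. Knstrn, a spindle gene outside the list, was called at -1.56 (SE 0.32).

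In single cells the G2/M share showed no steady order with Foxj1. A share of 0.5% of UMIs or more, a line drawn after the values were seen, was reached by 4 of the 62 matched cells with Foxj1 and 13 of the 62 partners, while the median share was 0.0751% against 0.072%. Over all gated cells the line was reached by 64 of the 383 Foxj1- cells, by 4 of 41 cells with 1 Foxj1 UMI, by 4 of 22 with 2 to 4 and by 0 of 20 with 5 or more. By library it was reached by 6 of 31 cells with Foxj1 against 28 of 136 in replicate 1, and by 2 of 52 against 36 of 247 in replicate 2. The median share was higher in the cells with 5 or more Foxj1 UMIs (0.138%) than in Foxj1- cells (0.0929%), and thinned to 5000 UMIs the medians were 7.5 and 8.5 G2/M UMIs against 4 and 4. None of the 32 S phase genes tested was called by edgeR, where 1.18% of all genes tested were, with a median log2 fold change of 0.09. Mki67 was at 99.4 and 34.4 CPM against 70.2 and 83.5 CPM, opposite directions in the 2 libraries, with a log2 fold change of -0.44 (SE 0.33). With 2 or more Foxj1 UMIs, 0 of 28 G2/M genes were called by edgeR, with a median of -0.31 (of all genes in that fit, 31 were called and 344 had an unadjusted p under 0.05). DESeq2 and edgeR without the library block each called 1.

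Calls among secretory and duct identity genes were too few to set apart from the 1.18% of all genes tested that were called. The secretory list had 1 of 23 tested, Hp, called higher: haptoglobin was at 129 and 58.3 CPM against 9.49 and 28.8 CPM, a log2 fold change of 1.92 (SE 0.41, edgeR adjusted p = 0.0423), with 44 of its 69 UMIs in replicate 1 in 1 cell. Pax8 was at 184 and 186 CPM against 150 and 238 CPM, seen in 44 and 45 of 62 cells, with a log2 fold change of -0.09 (SE 0.17, edgeR adjusted p = 0.952). Ovgp1 was at 137 and 142 CPM against 121 and 103 CPM (log2 0.34, SE 0.17, edgeR adjusted p = 0.663). Of 21 duct and region identity genes, 0 were called. Wt1 was at 131 and 175 CPM against 108 and 156 CPM, and Pax2 at 28.1 and 41.1 CPM against 20.9 and 37.8 CPM. The estrogen receptor gene Esr1 was at 78.8 and 84.1 CPM against 81.6 and 100 CPM, and the progesterone receptor gene Pgr at 13.1 and 20.1 CPM against 53.1 and 28.8 CPM (log2 -1.09, SE 0.38, edgeR adjusted p = 0.376).

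Notch genes gave 0 calls among 16 tested, a number too small to read against the 1.18% of all genes, with a median log2 fold change of 0.12. The target Hes1 was at 415 and 381 CPM against 342 and 366 CPM. The receptors Notch1 (log2 -0.06, SE 0.29), Notch2 (0.53, SE 0.27) and Notch3 (0.32, SE 0.43), the ligand Jag1 (-0.47, SE 0.28) and Hes6 (-0.16, SE 0.26) did not pass the test. The ligand genes Dll1 and Jag2 and the target gene Hey1 were below the low-count filter, with 3, 13 and 3 UMIs against 4, 6 and 1. Of 44 Wnt, Bmp and Fgf genes tested, 2 were called lower, against 0.327% of all genes tested. Id2, an inhibitor of basic helix-loop-helix factors, was at 146 and 141 CPM against 353 and 234 CPM, and Tgfbi, a matrix protein gene, at 118 and 97.5 CPM against 243 and 181 CPM. Igfbp4, outside these lists, was at 48.8 and 31.6 CPM against 161 and 83.5 CPM.

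The junction list had 1 of 45 called higher, against 0.856% of all genes tested: Cldn4, of tight junctions, at 158 and 187 CPM against 81.6 and 109 CPM (log2 0.84, SE 0.17), although with the relaxed limit on Upk3b and Pecam1 its log2 fold change was -0.06. Basal cell genes were near 0, with no Krt5 UMI in any matched cell and 1 Trp63 UMI. Of 31 immediate early and stress genes, 3 were higher, against the same 0.856%. The chaperone gene Hsp90aa1 was at 891 and 999 CPM against 600 and 557 CPM, Gadd45b at 403 and 492 CPM against 235 and 288 CPM, and Klf6 at 643 and 941 CPM against 366 and 658 CPM. The summed stress list was at 17923 and 20109 CPM with Foxj1 and at 13001 and 18887 CPM without, and its part in the other differences was not tested. Xist did not pass the test (log2 0.20, SE 0.14, edgeR adjusted p = 0.788), at 865 and 753 CPM against 600 and 811 CPM, opposite directions in the 2 libraries.

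Genes outside all lists, picked here after their values were seen, included the endothelin genes Edn2 (14 and 26 UMIs against 1 and 3) and Edn1 (61.9 and 126 CPM against 41.7 and 50.7 CPM), and Hbegf, a ligand of the epidermal growth factor receptor, at 173 and 187 CPM against 83.5 and 111 CPM. Dusp5, a phosphatase of the ERK pathway, was at 328 and 394 CPM against 125 and 203 CPM, with a log2 fold change of 1.13 (SE 0.15). Adamts1, a secreted protease gene, was at 88.2 and 141 CPM against 32.3 and 57.7 CPM. Cyclin genes went both ways: Ccna1 had 20 and 14 UMIs against 0 and 1, while Ccnd1 was at 169 and 211 CPM against 275.2 and 336 CPM.

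Markers of other cells moved with the classes in a few cells. Of 4 smooth muscle genes tested, 3 were called lower in the cells with Foxj1, against 0.327% of all genes tested, and the summed list of 6 genes was at 30.02 and 66.9 CPM against 457 and 213 CPM. In the partners, 120 of the 153 Acta2 UMIs of replicate 1 lay in 1 cell, and 84 of the 99 Tagln UMIs of replicate 2 did. Without barcodes of high doublet score the log2 fold change of Tagln was 1.27 in place of -1.75, and that of Acta2 was -0.66 in place of -2.89 and no longer called. Myh11 had 0 UMIs with Foxj1 and 46 in the partners, at least 15.8-fold lower by the 3-count floor, with 33 in 1 cell. Hbb-bs, a haemoglobin gene, was called higher (log2 6.25, SE 0.50), but 2993 of its 3014 replicate 2 UMIs lay in 1 cell, and without barcodes of high doublet score the log2 fold change was -0.19. The 7 stromal genes were at 263 and 127 CPM against 621 and 148 CPM, with 0 of 5 tested called. Of 7 myeloid genes 4 had a UMI, with a summed 1.88 and 1.91 CPM against 3.80 and 1.99 CPM, and of 6 ovarian genes 4 had one, at 5.63 and 6.69 CPM against 5.69 and 6.96 CPM. Of 6 mesothelial genes 2 were tested and 0 called, both higher in the 2 libraries with Foxj1, and the summed list, which holds Wt1, was at 173 and 227 CPM against 129 and 193 CPM. Endothelial genes other than Pecam1 were at 15.01 and 18.2 CPM against 24.7 and 19.9 CPM. The part of these cells in the other differences was not tested.

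Free RNA was bounded from droplets of at most 100 UMIs. Genes that epithelial cells should lack allowed at most 0.398% and 0.928% of the UMIs in the sums with Foxj1 to be free RNA, and 0.317% and 0.965% in the partners. At that bound free RNA could supply up to 0.0107% and 0.0344% of the Pifo UMIs and up to 0.0546% and 0.0479% of those of Ccno. For Acta2 in the cells with Foxj1 it could supply all 2 UMIs of replicate 1 and up to 49.6% of those in replicate 2.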

How the data were processed

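Single-cell RNA of oviduct and uterus was deposited as matrices of UMI counts per gene and barcode. Per the file headers, the authors made the filtered matrices with Cell Ranger 6.0.1 and the matrices of all barcodes with Cell Ranger 4, and the submitters' processing notes name mm10 and Seurat 4.2.3. Neither the alignment settings nor the strand rule of the counting is given in the sources used here. The counts are whole numbers of UMIs, not normalized. The members and gene lists were chosen with earlier results of these data known.

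Cells were chosen as described above and each cell with Foxj1 was paired with a Foxj1- cell of the same library (total UMIs at most 25% apart, from the deepest cell down). Summed counts were tested under R 4.3.3 by edgeR 4.0.16 (TMM, filterByExpr, quasi-likelihood F-test with the library as a block, 2-sided, Benjamini-Hochberg over all genes tested), and DESeq2 1.42.0 was an alternative. The library is the block because both sums of a library come from the same neonates, and deviations of its 2 sums correlated over 7941 genes at r = 0.154. SE was taken as the log2 fold change divided by the square root of F, and CPM is per 1000000 UMIs of the sum. Named genes were the 12 largest changes per direction at a mean of at least 20 CPM and the same direction in both libraries (leaving out Gm-numbered, mitochondrial, ribosomal and haemoglobin genes), up to 4 per direction in each list, and a fixed set given whatever its result. Genes described outside that rule were picked after their values were seen. Doublet scores came from Scrublet in scanpy 1.11.5, and the barcodes with the highest scores, 0.8% per 1000 barcodes, were removed in an alternative only. Positions are from GENCODE M21 and promoters from RefSeq, both on GRCm38. The fit was tested on simulated counts for this comparison (7941 genes, 200 changed in each of 5 sets). There it recovered 47.4% of 2-fold and 94.3% of 4-fold changes, with 4.27% of calls false. The share of false calls in the measured counts, where 1 cell could hold most UMIs of a gene, was not tested. The alternatives were DESeq2, RLE scaling, no low-count filter, no library block, no depth matching, thinning, a ratio of 1.1, 2 or more Foxj1 UMIs, a stricter cell filter, 4 epithelial genes, doublet removal and each library left out. Added after the data were seen were a limit of 0.01% on Upk3b and Pecam1 and the removal of 1 cell per library.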

Additional observations from a re-analysis of the deposited data

Results flagged for a closer look

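In the oviduct, epithelial cells that the rule left out for a Upk3b or Pecam1 UMI held 260 Foxj1 UMIs in replicate 1 (26 cells) and 224 in replicate 2 (40 cells), in data that the main comparison does not use. They call for a closer look because the cells kept by the rule held 176 and 296, so that in replicate 1 the larger part of epithelial Foxj1 RNA lay outside it. One such replicate 1 cell, with 249079 UMIs and 1 UMI of Upk3b or Pecam1, had 57 Foxj1 UMIs, 4 of the 5 regulators and 1.08% axoneme RNA. Another, with 174330 UMIs, had 47 Foxj1 UMIs and all 5 regulators with 0.213% axoneme RNA. In replicate 2 a cell of 179842 UMIs had 35 Foxj1 UMIs, all 5 regulators and 0.368% axoneme RNA. With up to 0.01% of UMIs allowed for both genes, the comparison called 217 genes (124 higher, 93 lower), 66 of them among the 94.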

How the results depend on the processing

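The number of genes called was 94 and moved with most choices. It was 7 with DESeq2, 61 with RLE scaling, 248 without the low-count filter, 14 without the replicate block, 214 without depth matching, 167 at a ratio of 1.1, 31 with 2 or more Foxj1 UMIs, 39 with the stricter cell filter and 217 with the relaxed limit on Upk3b and Pecam1. It was within 1.5 times of 94 with thinning (71), 4 epithelial genes (96), doublets removed (134) and 1 cell per library left out (76). A like number did not mean the same genes: in that order, 24, 87, 87 and 50 of these calls were among the 94. The thinned fit tested 3341 genes in cells that were not matched.

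Axoneme genes called higher, 28 in the main comparison, were 4 with DESeq2, 57 without the low-count filter, 7 without the block, 5 of 8 tested with thinning, 17 of 34 with 2 or more Foxj1 UMIs, 12 with the stricter filter and 2 without 1 cell per library. G2/M genes called lower, 10 in the main comparison, were 1 with DESeq2, 1 without the block, 6 without matching, 5 with thinning, 5 at a ratio of 1.1, 0 with 2 or more Foxj1 UMIs, 16 with doublets removed and 18 with the relaxed limit. The mean share with Foxj1, 18.0%, was 8.87% at 2 or more UMIs, 28.0% with the stricter filter, 23.2% with 4 epithelial genes, 10.8% thinned and 24.6% with the relaxed limit, and lay between 17.4% and 18.6% with either library left out.

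Among 37 called named genes, 28 lost the call without the block and 30 of 34 lost it with DESeq2. With either library left out no test was possible, and fold changes only were computed. They kept their sign for all 37 but moved by at least the SE of the main fit for 18 without replicate 1 and for 24 without replicate 2. Log2 fold changes changed sign for called genes as follows: Tagln to 1.27 with doublets removed, Cldn4 to -0.0599 with the relaxed limit, and Hbb-bs to -2.06 without matching, -1.83 thinned and -0.19 with doublets removed. Genes not called in the main comparison changed sign as follows. Without matching, Pax8 was at 0.14, Notch1 at 0.69, Mki67 at 0.30 and Xist at -0.0903. Thinned, Pax8 was at 0.62, Esr1 at 0.25 and Mki67 at 0.14. At a ratio of 1.1, Pax8 was at 0.0044 and Mki67 at 0.32. With 2 or more Foxj1 UMIs, Hes6 was at 0.47, Mki67 at 0.0348 and Xist at -0.0391. With the stricter filter, Notch1 was at 7.83e-06, and with doublets removed, Esr1 was at 0.0547. With the relaxed limit, Pax8 was at 0.28, Pax2 at -0.20, Esr1 at 0.17, Notch1 at 0.26, Notch3 at -0.11 and Xist at -0.0613. Without 1 cell per library, Notch1 was at 0.0155. Without replicate 1 and without replicate 2, in that order, Pax8 was at -0.36 and 0.32, Notch1 at 0.12 and -0.49, Hes6 at -0.26 and 0.0086, Mki67 at -1.28 and 0.52 and Xist at -0.11 and 0.55. The cause of these shifts was not tested.

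With 2 libraries, 62 matched cells and a median depth of 25920 UMIs, the low-count filter kept Mcidas, Deup1, Trp73, Gmnc, Rfx2 and Cdc20b out of the main test. P-values of the main test measure the spread of the class difference over 2 libraries, each a pool of neonates.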
